A study of Mus musculus with 6 samples.

Results

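The Polycomb complexes PRC2 and PRC1, the H3K27 demethylases Kdm6a and Kdm6b and the H2A deubiquitinase PR-DUB were examined in colonic organoids from mice that had gone through dextran sodium sulfate (DSS) colitis. The 35 genes were chosen by name for their place in these complexes and not for their values. All 35 were found among the 40840 genes of the deposited table, and all 35 passed the filter on low values that left 11643 genes for testing. They comprise 11 PRC2 genes, 19 PRC1 genes and 5 genes of the enzymes that work against the 2 marks.

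DSS organoids came from 3 wt C57BL/6 mice that drank 2.5% DSS for 5 days at 10 weeks of age and, after an interval of 2 weeks, for another 5 days. DSS is a polymer that damages the colon epithelium. Control organoids came from 3 wt C57BL/6 mice without DSS, whose age the labels do not give. The DSS cultures were started on day 14 after DSS and harvested for RNA on day 4 in Matrigel. The culture medium described for wt organoids held L-WRN conditioned medium, a source of Wnt3a, R-spondin and noggin, together with small molecule inhibitors, so the levels are those of cells under that medium. Each library stands for 1 mouse. The comparison asks whether epithelium that had been through colitis expressed the H3K27 methylation machinery differently once in culture. The study measured this mark in wt organoids with or without the cytokine TNFα, and reports no such measurement in DSS organoids. The mark itself is not analysed here: every value below is an RNA level.

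PRC2 methylates histone H3 at H3K27 through Ezh1 or Ezh2, which are active only together with Eed and Suz12, and the mark goes with silent developmental genes and the silent Cdkn2a locus. PRC1 places ubiquitin on histone H2A through Ring1 or Rnf2 paired with 1 of 6 Pcgf proteins, and its canonical forms bind the PRC2 mark through a Cbx protein and compact chromatin with a Phc protein. Kdm6a and Kdm6b take methyl groups off H3K27, and Bap1 with an Asxl protein takes the ubiquitin off H2A. In the intestinal epithelium Polycomb is known for keeping crypt progenitors dividing and for holding non-intestinal gene programs silent.

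The promoters of the 4 genes that rose and of Ezh1, the paralog that did not, are shown because the levels of these genes are the ones the comparison turns on. Each sequence runs 5′ to 3′ on the gene's own strand, over 250 bases before and 50 bases after the RefSeq start site, in build GRCm38.p6, which is an older build than the GRCm39 used for the expression values. They lie at chr6:47594981-47595280 (minus strand, Ezh2), chr11:79992856-79993155 (plus strand, Suz12), chr6:122340178-122340477 (minus strand, Phc1), chr2:18676768-18677067 (plus strand, Bmi1) and chr11:101226414-101226713 (minus strand, Ezh1). Capitals mark matches, on either strand, to TTTCCCGC or TTTGGCGC (bound by E2F factors), to CCAAT, read as ATTGG on the other strand (bound by NF-Y), or to CCGGAAGT (bound by ETS factors).
Ezh2: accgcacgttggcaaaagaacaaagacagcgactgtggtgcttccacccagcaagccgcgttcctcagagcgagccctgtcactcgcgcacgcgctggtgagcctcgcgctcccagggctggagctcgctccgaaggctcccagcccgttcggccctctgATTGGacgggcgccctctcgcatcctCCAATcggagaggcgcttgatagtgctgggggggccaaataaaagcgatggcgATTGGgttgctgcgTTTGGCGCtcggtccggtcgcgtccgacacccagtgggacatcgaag
Suz12: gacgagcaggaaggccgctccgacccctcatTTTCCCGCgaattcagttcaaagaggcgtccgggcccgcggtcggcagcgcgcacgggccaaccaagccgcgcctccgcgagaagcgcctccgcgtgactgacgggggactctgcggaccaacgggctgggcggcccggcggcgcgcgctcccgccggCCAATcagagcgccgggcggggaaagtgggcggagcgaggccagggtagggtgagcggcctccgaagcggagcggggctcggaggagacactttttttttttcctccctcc
Phc1: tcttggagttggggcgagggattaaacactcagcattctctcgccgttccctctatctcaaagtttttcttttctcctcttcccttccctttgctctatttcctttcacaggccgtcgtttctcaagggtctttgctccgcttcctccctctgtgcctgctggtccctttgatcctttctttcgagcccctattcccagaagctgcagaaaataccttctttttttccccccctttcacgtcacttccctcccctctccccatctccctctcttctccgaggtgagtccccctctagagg
Bmi1: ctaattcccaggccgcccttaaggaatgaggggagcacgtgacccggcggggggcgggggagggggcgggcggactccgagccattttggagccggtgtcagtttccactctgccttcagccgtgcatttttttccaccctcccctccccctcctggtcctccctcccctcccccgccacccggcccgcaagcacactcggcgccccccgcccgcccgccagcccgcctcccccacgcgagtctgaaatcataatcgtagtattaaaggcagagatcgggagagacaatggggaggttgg
Ezh1: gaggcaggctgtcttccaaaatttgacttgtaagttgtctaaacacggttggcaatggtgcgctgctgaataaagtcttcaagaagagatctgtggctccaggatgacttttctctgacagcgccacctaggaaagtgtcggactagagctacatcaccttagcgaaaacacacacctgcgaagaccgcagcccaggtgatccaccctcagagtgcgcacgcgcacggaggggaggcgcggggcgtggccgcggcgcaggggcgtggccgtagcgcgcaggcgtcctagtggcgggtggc
No match overlapped another. Ezh2 carried the E2F letters TTTGGCGC starting 3 bases after the start site and 3 CCAAT matches, and Suz12 carried TTTCCCGC starting at position -219 from the start site and 1 CCAAT match. Phc1, Bmi1 and Ezh1 held none of these letters in the same window.

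Over the 30 of 35 genes whose promoter was in the RefSeq table, the E2F letters were found in 3 (10.0%), Ezh2, Suz12 and Phf19, all of PRC2. They were in 1.8% of all 27025 promoters listed and in 3.54% of the 9327 promoters that belong to genes tested for expression. CCAAT was in 13 of 30 (43.3%), against 41.1% of all promoters and 43.3% of those of tested genes. CCGGAAGT was in 1 of 30 (3.33%), Asxl2, against 4.31% and 9.69%. Cbx2, Pcgf1, Kdm6b, Rybp and Yaf2 were not in the table. A match is a stretch of letters and was not tested for binding.

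In DSS organoids 4 of the 35 genes rose and 0 fell (limma on log2(TPM + 1), Benjamini-Hochberg adjusted p under 0.05 over all 11643 genes). They were Ezh2 and Suz12 of PRC2 and Phc1 and Bmi1 of PRC1. Among all genes tested 10.3% passed the same threshold, 6.45% higher and 3.89% lower, and 4 of 35 is 11.4%, so the share of Polycomb genes that passed is near that background. At an unadjusted p under 0.05 there were 7 higher and 2 lower, against 18.1% and 11.5% of all genes. The log2 fold changes of the 35 genes ran between -0.62 (Cbx6) and 0.85 (Phc1) with a median of 0.205, and that of all genes tested was 0.05. The changes were 25 positive and 10 negative. In 9 genes every DSS library stood above every control library and in 2 every one stood below, whereas 21.1% and 15.3% of all genes tested did so. Without DSS replicate 1, 8 of the 35 passed as higher and 1 as lower, beside 14.6% and 7.09% of all genes tested. Phf19 and Cbx2 averaged under 1 TPM in control organoids and passed the filter through the DSS libraries only.

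**Figure D1:**
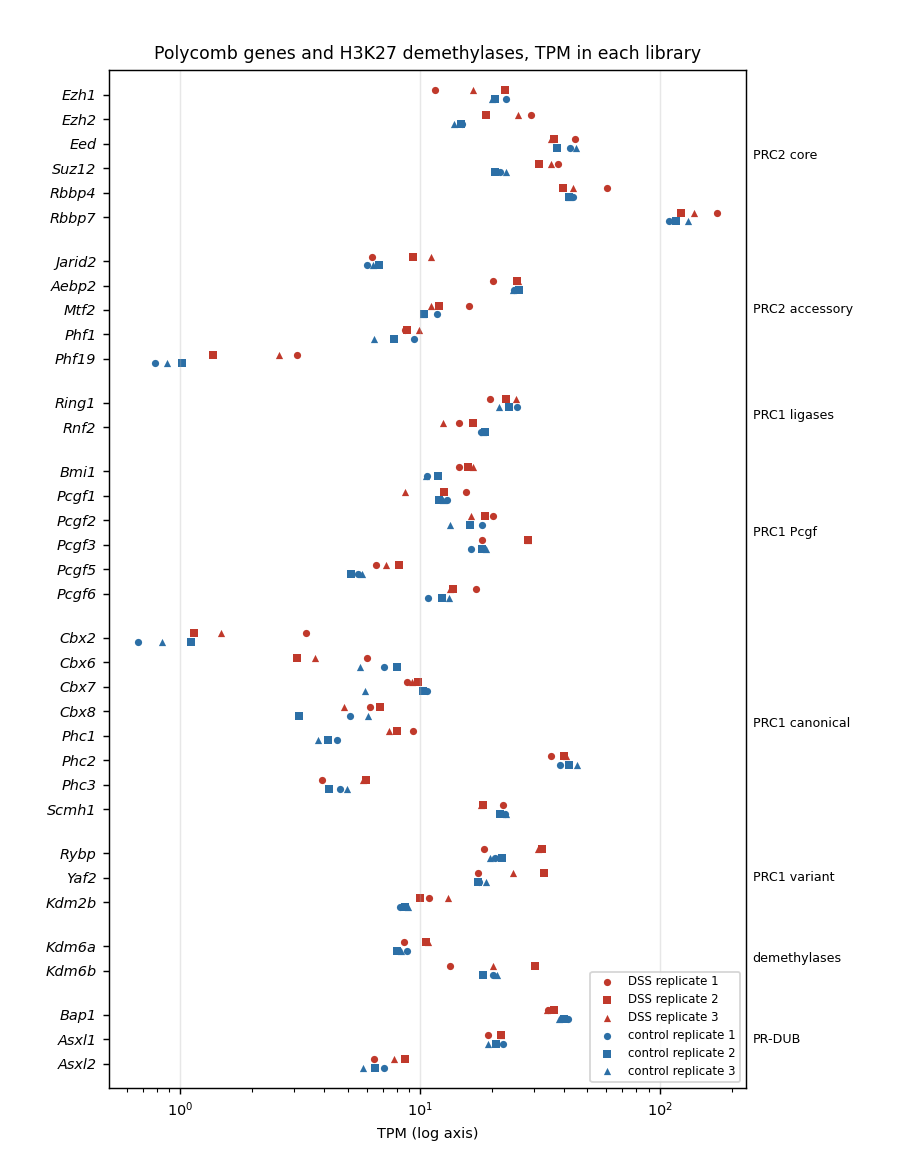
TPM of each Polycomb, demethylase and PR-DUB gene (rows, grouped by complex) on a log axis, with 1 point for each of the 3 DSS libraries (red) and 3 control libraries (blue), the marker shape giving the replicate. The red points of Ezh2, Suz12, Phc1 and Bmi1 all lie to the right of the blue ones, Rbbp7 has the highest levels with 174 TPM in DSS replicate 1, and Phf19 and Cbx2 the lowest.

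Fold changes are given on the log2(TPM + 1) scale, DSS minus control, which understates the change of genes with few TPM, and the standard error (SE) is limma's. TPM scales each transcript's reads to its length and to a fixed library total, so that levels of different genes can be set side by side, but it keeps no sequencing depth. The depth of the libraries is therefore unknown, and no counting interval is given. In bulk organoids, fewer cells that express a gene and less of its RNA in each cell cannot be told apart.

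The PRC2 core held 2 of the 4 genes that rose, and the log2 fold changes of its catalytic paralogs Ezh2 and Ezh1 had opposite signs. Ezh2, the methyltransferase of dividing cells, had 29.0, 18.9 and 25.7 TPM in DSS replicates 1, 2 and 3, against 15.1, 14.9 and 13.9 TPM in control replicates 1, 2 and 3. All 3 DSS libraries lay above the controls, DSS replicate 2 least so. Its means were 24.6 ± 5.15 TPM in DSS and 14.6 ± 0.644 TPM in control organoids (SD, n = 3 each), and the log2 fold change was 0.69 with an SE of 0.17 (limma adjusted p = 0.0477). Suz12, the scaffold that holds the enzyme complex together, had 37.7, 31.4 and 35.1 TPM in the DSS libraries, against 21.6, 20.5 and 22.8 TPM in the control libraries. The gap between the groups exceeded the spread within either, and the log2 fold change was 0.66 with an SE of 0.11 (adjusted p = 0.0212). Both calls were lost when control replicate 1, 2 or 3 or DSS replicate 3 was left out. Of all genes tested 1.2%, 0.378%, 1.27% and 0.888% passed in these settings, against 10.3% in the main fit. The adjusted p of Ezh2 was then 0.133, 0.166, 0.151 and 0.161, and that of Suz12 was 0.0832, 0.118, 0.0724 and 0.0917, with log2 fold changes that stayed between 0.57 and 0.86 for Ezh2 and between 0.59 and 0.73 for Suz12 over all 13 alternatives. Ezh2 also lost its call under median-ratio scaling (adjusted p = 0.0632), quantile normalization (0.0702) and a fit without the mean-variance trend (0.0556), where Suz12 kept its own.

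Ezh1, the less active methyltransferase that resting cells keep, had 11.6, 22.6 and 16.7 TPM in the DSS libraries, against 22.9, 20.7 and 20.1 TPM in the control libraries. DSS replicate 2 lay among the controls and the other DSS libraries below them, so the groups overlap (log2 fold change -0.35, SE 0.23, adjusted p = 0.343). Eed, the reader of the methyl mark that activates the enzyme, had 44.6, 36.4 and 35.4 TPM in DSS and 42.5, 37.3 and 44.7 TPM in control libraries, with a log2 fold change of -0.10 (adjusted p = 0.663). The groups overlap in Eed, the obligate partner of Suz12. The histone chaperones Rbbp4 and Rbbp7, which PRC2 shares with other complexes, did not pass either. Rbbp7, the most abundant of the 35 genes, had 174, 123 and 140 TPM in DSS against 110, 117 and 132 TPM in control libraries (log2 fold change 0.27, adjusted p = 0.275). Rbbp4 had 60.1, 39.6 and 43.4 TPM in DSS against 43.7, 41.8 and 41.7 TPM in control libraries (0.14, adjusted p = 0.601), and its positive value rests on DSS replicate 1, without which it was -0.03.

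The 5 accessory genes of PRC2, which steer the complex to its sites, gave 0 calls by limma in either direction, with 1 higher at an unadjusted p under 0.05. That gene was Phf19, a Polycomb-like protein that reads methylation of another H3 lysine. It had 3.08, 1.37 and 2.59 TPM in DSS libraries, against 0.79, 1.02 and 0.88 TPM in control libraries. Every DSS library was above every control, by little in DSS replicate 2, and the log2 fold change of 0.78 (SE 0.25) had an adjusted p of 0.0916. Without DSS replicate 2 Phf19 passed, with an adjusted p of 0.024. Its paralogs Mtf2 and Phf1 had log2 fold changes of 0.23 (adjusted p = 0.369) and 0.20 (adjusted p = 0.443), with overlapping groups. Mtf2 had 15.98, 11.98 and 11.2 TPM in DSS against 11.8, 10.4 and 10.3 TPM in control libraries, and Phf1 had 8.69, 8.87 and 9.95 against 9.48, 7.84 and 6.45 TPM.

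Jarid2 and Aebp2 mark the other form of PRC2. Jarid2, which binds nucleosomes that carry ubiquitinated H2A, had 6.30, 9.34 and 11.1 TPM in DSS libraries against 6.04, 6.73 and 6.39 TPM in control libraries. DSS replicate 1 lay at the control level, and the log2 fold change of 0.39 (SE 0.20) did not pass (adjusted p = 0.243), while without that library it was 0.60 and passed (adjusted p = 0.0239). Aebp2 had 20.2, 25.5 and 25.7 TPM in DSS against 24.6, 25.9 and 24.5 TPM in control libraries, with a log2 fold change of -0.08 (adjusted p = 0.726). Over the 11 PRC2 genes the median log2 fold change was 0.23, with 2 higher and 0 lower calls by limma. That is 18.2%, against 10.3% of all genes tested in either direction. At an unadjusted p under 0.05 there were 3 higher and 0 lower, against 18.1% and 11.5% of all genes tested. The summed level of the 11 genes was 411, 329 and 356 TPM in the DSS libraries, against 308, 305 and 323 TPM in the control libraries. Of this sum Rbbp7 supplied the largest part.

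**Figure D2:**
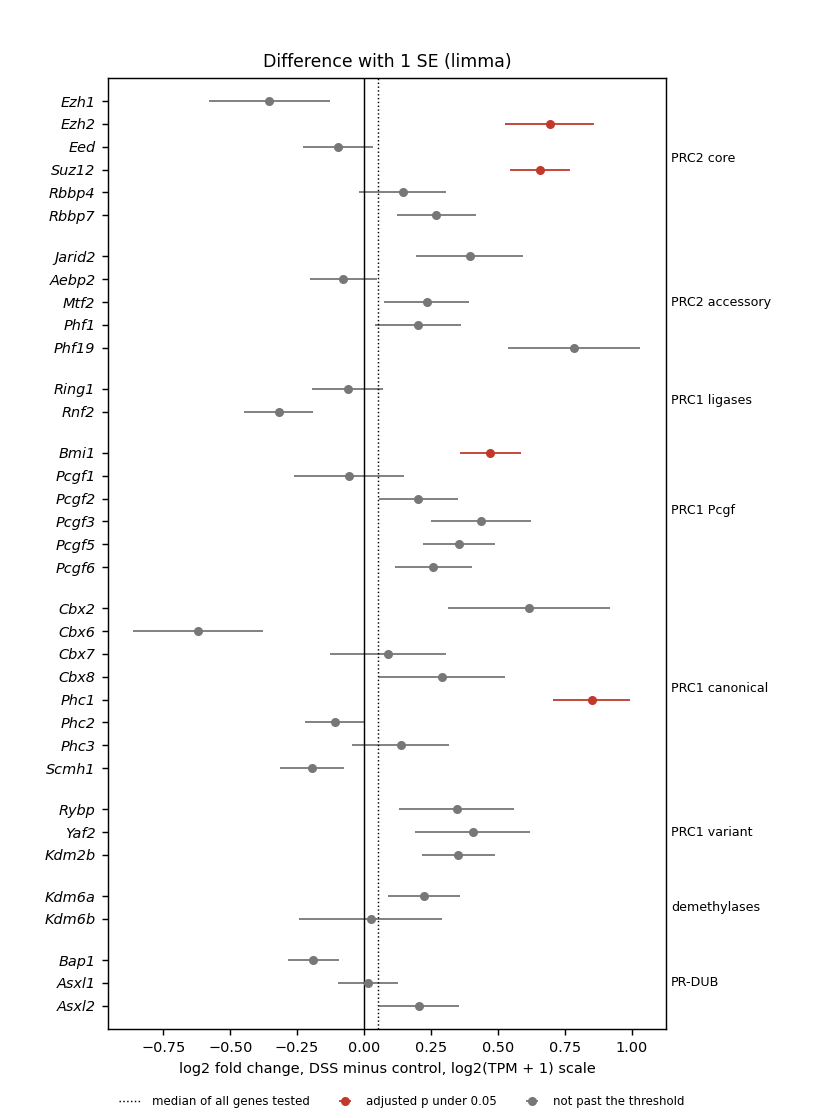
Log2 fold change of each gene on the log2(TPM + 1) scale, DSS minus control, with bars of 1 standard error from limma (n = 3 each); red marks genes with an adjusted p under 0.05 and the dotted line is the median of all genes tested, 0.05. Phc1 (0.85), Ezh2 (0.69), Suz12 (0.66) and Bmi1 (0.47) are red, while Phf19 (0.78) and Cbx2 (0.62) reach as far with wider bars.

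In PRC1 2 of 19 genes rose, Phc1 and Bmi1. That is 10.5%, near the 10.3% of all genes tested that passed in either direction. The catalytic pair did not pass. Rnf2, the main E3 ligase for H2A, had 14.6, 16.7 and 12.5 TPM in DSS libraries, against 17.96, 18.8 and 18.3 TPM in control libraries. All 3 DSS values were below the controls, with a log2 fold change of -0.32 (SE 0.13), an unadjusted p of 0.0440 and an adjusted p of 0.158. Ring1, the alternative ligase, had 19.6, 22.8 and 25.2 TPM in DSS against 25.5, 23.7 and 21.3 TPM in control libraries (-0.06, adjusted p = 0.795).

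Of the 6 Pcgf genes, which pair with the ligase and define the type of PRC1, Bmi1 rose. Bmi1, found in canonical PRC1 and known for repressing Cdkn2a, had 14.5, 15.9 and 16.7 TPM in DSS libraries, against 10.7, 11.9 and 10.6 TPM in control libraries. The 3 DSS values were close to each other and all above the controls, giving 15.7 ± 1.10 TPM in DSS and 11.1 ± 0.695 TPM in control organoids (SD, n = 3 each) and a log2 difference of 0.47 with an SE of 0.11 (limma adjusted p = 0.0478). The call was lost when any library but DSS replicate 1 was left out, with adjusted p = 0.15, 0.155 and 0.16 without control replicate 1, 2 and 3, and 0.0694 and 0.159 without DSS replicate 2 and 3. Without any control library or DSS replicate 3 at most 1.27% of all genes tested passed, and without DSS replicate 2 it was 16.3%. The Bmi1 call was also lost under median-ratio scaling (0.0537), quantile normalization (0.0709) and without the mean-variance trend (0.0501). Pcgf2, the canonical alternative to Bmi1, had 20.2, 18.7 and 16.4 TPM in DSS against 18.3, 16.1 and 13.4 TPM in control libraries, with overlapping groups (0.20, adjusted p = 0.407).

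The Pcgf genes of variant PRC1 did not pass. Pcgf3 had 18.2, 28.2 and 28.2 TPM in DSS libraries against 16.4, 18.2 and 18.8 TPM in control libraries, with a log2 fold change of 0.44 (adjusted p = 0.175). DSS replicate 1 lay among the controls, and without it the change was 0.64 and passed (adjusted p = 0.012). Pcgf5, close in sequence to Pcgf3, had 6.54, 8.21 and 7.23 TPM in DSS against 5.55, 5.19 and 5.77 TPM in control libraries, with no overlap (0.35, adjusted p = 0.139). Pcgf6, whose complex is known for silencing germline genes, also did not overlap, with 17.2, 13.8 and 13.3 TPM in DSS against 10.8, 12.4 and 13.2 TPM in control libraries (0.26, adjusted p = 0.274). The lowest DSS value of Pcgf6 barely exceeded the highest control value. Pcgf1 had 15.7, 12.6 and 8.64 TPM in DSS against 12.9, 12.1 and 12.5 TPM in control libraries (-0.06, adjusted p = 0.882), so that the DSS libraries lay on both sides of the controls.

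Phc1, a polyhomeotic protein whose SAM domain chains canonical PRC1 units together, had the largest log2 fold change of the 35 genes. It stood at 9.40, 8.05 and 7.41 TPM in DSS libraries, against 4.51, 4.16 and 3.76 TPM in control libraries. The mean levels were 8.29 ± 1.02 TPM in DSS and 4.14 ± 0.375 TPM in control organoids (SD, n = 3 each), a 2.0-fold difference in TPM, with 0.85 on the log2(TPM + 1) scale and an SE of 0.14 (limma adjusted p = 0.0209). The call was lost without control replicate 1, 2 or 3 (adjusted p = 0.0714, 0.109 and 0.0839) and without DSS replicate 3 (0.0726), at log2 fold changes between 0.80 and 0.92. In these settings at most 1.27% of all genes tested passed. The paralogs of Phc1 did not pass. Phc2, by far the most abundant of the family, had 35.3, 39.97 and 40.8 TPM in DSS against 38.3, 41.7 and 45.3 TPM in control libraries (-0.11, adjusted p = 0.568). Phc3 had 3.91, 5.96 and 5.81 TPM in DSS against 4.63, 4.20 and 4.99 TPM in control libraries (0.14, adjusted p = 0.661). The share of Phc1 in the summed TPM of the 3 Phc genes was 19.3%, 14.9% and 13.7% in DSS libraries, against 9.5%, 8.31% and 6.96% in control libraries, and that of Phc2 was 72.6%, 74.0% and 75.5% against 80.7%, 83.3% and 83.8%.

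The Cbx genes, which encode the chromodomain readers of the PRC2 mark, gave 0 calls by limma, and 1 of the 4 had an unadjusted p under 0.05. That was Cbx6, with 6.04, 3.07 and 3.65 TPM in DSS against 7.07, 8.05 and 5.62 TPM in control libraries (log2 fold change -0.62, SE 0.24, unadjusted p = 0.0377, adjusted p = 0.144). DSS replicate 1 lay among the controls, and without it the change was -0.85 and passed (adjusted p = 0.0231). Cbx2, a compacting reader linked to development, pointed the other way, with 3.36, 1.15 and 1.49 TPM in DSS against 0.67, 1.11 and 0.84 TPM in control libraries (0.62, SE 0.30, adjusted p = 0.225). Cbx7, the reader of stem cells in several tissues, had 8.87, 9.83 and 9.27 TPM in DSS against 10.7, 10.3 and 5.92 TPM in control libraries (0.09, adjusted p = 0.823), and its sign turned without control replicate 3 (-0.16) and under quantile normalization (-0.03). Cbx8 had 6.19, 6.85 and 4.83 TPM in DSS against 5.10, 3.15 and 6.09 TPM in control libraries (0.29, adjusted p = 0.452). Of the summed TPM of these 4 genes Cbx6 made up 24.7%, 14.7% and 19% in DSS libraries against 30.0%, 35.6% and 30.4% in control libraries, and Cbx2 13.7%, 5.5% and 7.74% against 2.85%, 4.91% and 4.55%. The Cbx6 shares were apart between the groups. Those of Cbx2 were apart by little in DSS replicate 2, and Cbx2 averaged under 1 TPM in control organoids and passed the filter through the DSS libraries only. Scmh1, another SAM domain protein of canonical PRC1, had 22.3, 18.3 and 18.1 TPM in DSS against 22.8, 21.7 and 22.8 TPM in control libraries (-0.20, adjusted p = 0.320).

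**Figure D3:**
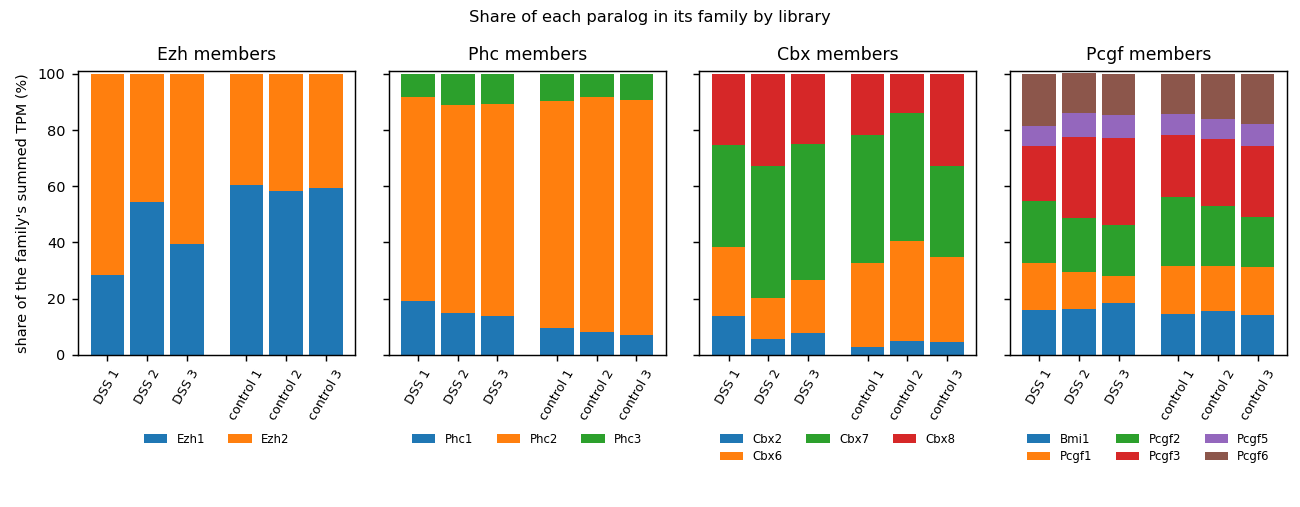
Share of each gene in the summed TPM of its family (percent, 1 bar for each library, DSS libraries left of control libraries) for the Ezh, Phc and Pcgf genes and the 4 Cbx genes described. Ezh2 makes up 71.5%, 45.6% and 60.7% of the Ezh sum in DSS libraries and 39.6%, 41.8% and 40.8% in control libraries, and the bars of the Pcgf genes differ less.

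The variant PRC1 genes, which mark forms that find chromatin without the PRC2 mark, were split by library. Rybp had 18.6, 32.3 and 31.1 TPM in DSS against 20.5, 21.95 and 19.6 TPM in control libraries (0.35, adjusted p = 0.328), and its paralog Yaf2 had 17.6, 32.9 and 24.4 TPM against 17.7, 17.5 and 18.95 TPM (0.41, adjusted p = 0.261). DSS replicate 1 lay below all controls in Rybp and within their range in Yaf2, and in both genes the other DSS libraries were above all controls. Without DSS replicate 1 both passed, Rybp at 0.59 (adjusted p = 0.0123) and Yaf2 at 0.63 (adjusted p = 0.0285). Kdm2b, which takes variant PRC1 to unmethylated CpG islands, had 10.9, 10.0 and 13.1 TPM in DSS against 8.24, 8.64 and 8.97 TPM in control libraries, with no overlap (0.35, SE 0.14, unadjusted p = 0.0356, adjusted p = 0.140). Over the 19 PRC1 genes the median log2 fold change was 0.26, with 2 higher and 0 lower calls by limma. That is 10.5%, against 10.3% of all genes tested in either direction. At an unadjusted p under 0.05 there were 4 higher and 2 lower, against 18.1% and 11.5% of all genes tested. The summed level of the 19 genes was 269, 305 and 288 TPM in the DSS libraries, against 258, 261 and 257 TPM in the control libraries.

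The enzymes that remove the marks gave 0 calls by limma in 5 genes, and 0 at an unadjusted p under 0.05. Kdm6a, the X-linked demethylase that also sits in an H3K4 methyltransferase complex, had 8.58, 10.6 and 10.9 TPM in DSS against 8.83, 8.0 and 8.38 TPM in control libraries (0.22, SE 0.13, adjusted p = 0.308). Kdm6b, the demethylase that inflammatory signals are known to induce in macrophages, had 13.4, 30.2 and 20.2 TPM in DSS against 20.1, 18.4 and 21.1 TPM in control libraries. Its DSS libraries lay below, above and within the control range, and the log2 fold change of 0.02 (SE 0.27, adjusted p = 0.962) turned to -0.26 without DSS replicate 2. The sign also turned under both scalings, to -0.03 under median-ratio scaling and -0.05 under quantile normalization.

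Bap1, the catalytic subunit of PR-DUB, had 34.4, 36.3 and 33.8 TPM in DSS against 41.5, 40.1 and 38.1 TPM in control libraries. All 3 DSS values lay below the controls. The log2 fold change was -0.19 (SE 0.10, adjusted p = 0.234). Its partner Asxl1 had 19.3, 21.8 and 21.7 TPM in DSS against 22.2, 20.8 and 19.2 TPM in control libraries, and Asxl2 had 6.47, 8.68 and 7.80 TPM against 7.12, 6.53 and 5.80 TPM. The groups overlap in both, with adjusted p = 0.942 for Asxl1 and 0.410 for Asxl2.

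The balance between paralogs was then taken within each library as a ratio of TPM, which does not depend on how the library was scaled. The Ezh2 to Ezh1 ratio was 2.51, 0.838 and 1.54 in DSS libraries, against 0.657, 0.72 and 0.69 in control libraries. Ezh2 thus exceeded Ezh1 in DSS replicates 1 and 3 and was the lower of the pair in DSS replicate 2 and in all controls. On the log2 scale the ratio averaged 0.57 ± 0.79 in DSS and -0.54 ± 0.07 in control libraries (SD, n = 3 each), a difference of 1.10 with an exact permutation p of 0.1 (two-sided). That is the smallest p that 3 against 3 libraries allow. Leaving out DSS replicate 1 gave a difference of 0.73, and leaving out DSS replicate 2 one of 1.51.

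Of the 9 pairs set against each other, 3 did not overlap between the groups, each at the same exact permutation p of 0.1 (0.3 after Benjamini-Hochberg adjustment over the 9 pairs). Of single genes tested, 36.4% did not overlap in either direction. The Phf19 to Mtf2 ratio was 0.193, 0.114 and 0.232 in DSS against 0.0671, 0.0984 and 0.0852 in control libraries. Phf19 averaged 0.897 TPM in control organoids, so that ratio rests on values near the floor. The Asxl2 to Asxl1 ratio was 0.335, 0.398 and 0.359 in DSS against 0.321, 0.315 and 0.302 in control libraries. The ratios of Bmi1 to Pcgf2, Rnf2 to Ring1, Kdm6b to Kdm6a, Rbbp7 to Rbbp4, Yaf2 to Rybp and Cbx8 to Cbx7 overlapped, with exact permutation p between 0.3 and 0.8.

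**Figure D4:**
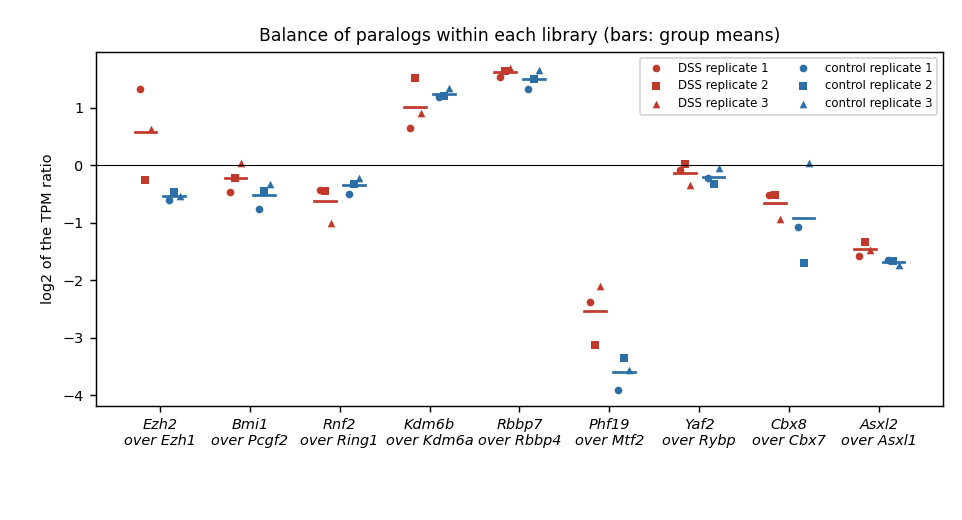
Log2 ratio of the TPM of 2 paralogs within each library, for 9 pairs, with DSS libraries (red) left of control libraries (blue) and a bar at each group mean. The ratio of Ezh2 to Ezh1 averages 0.57 in DSS and -0.54 in control libraries and spreads widely over the DSS libraries only, while Rbbp7 stays above Rbbp4 in all 6.

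The order of the 3 DSS libraries differed among the 35 genes, as it did among all genes tested. In 28 of the 35 genes (80.0%) the SD of log2(TPM + 1) was larger over the DSS libraries than over the controls, near the 75.8% of all genes tested. Ezh2, Suz12, Rbbp4, Rbbp7, Phf19, Cbx2 and Cbx6 were highest in DSS replicate 1, then 3, then 2. That is 7 of 35 genes (20.0%), 5 of them of PRC2, and 26.2% of all genes tested follow this order. The reverse order was found in 10 genes (28.6%, against 28.2% of all genes tested): Ezh1, Pcgf3, Pcgf5, Cbx7, Phc3, Rybp, Yaf2, Kdm6b, Asxl1 and Asxl2. Ezh1 and Ezh2 thus stood in opposite orders. Bmi1, Jarid2, Aebp2, Phf1, Ring1, Phc2 and Kdm6a were highest in DSS replicate 3 and lowest in DSS replicate 1 (20.0%, against 19.1%). Eed, Mtf2, Pcgf1, Pcgf2, Pcgf6, Phc1 and Scmh1 were highest in DSS replicate 1 and lowest in DSS replicate 3 (20.0%, against 9.6%).

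**Figure D5:**
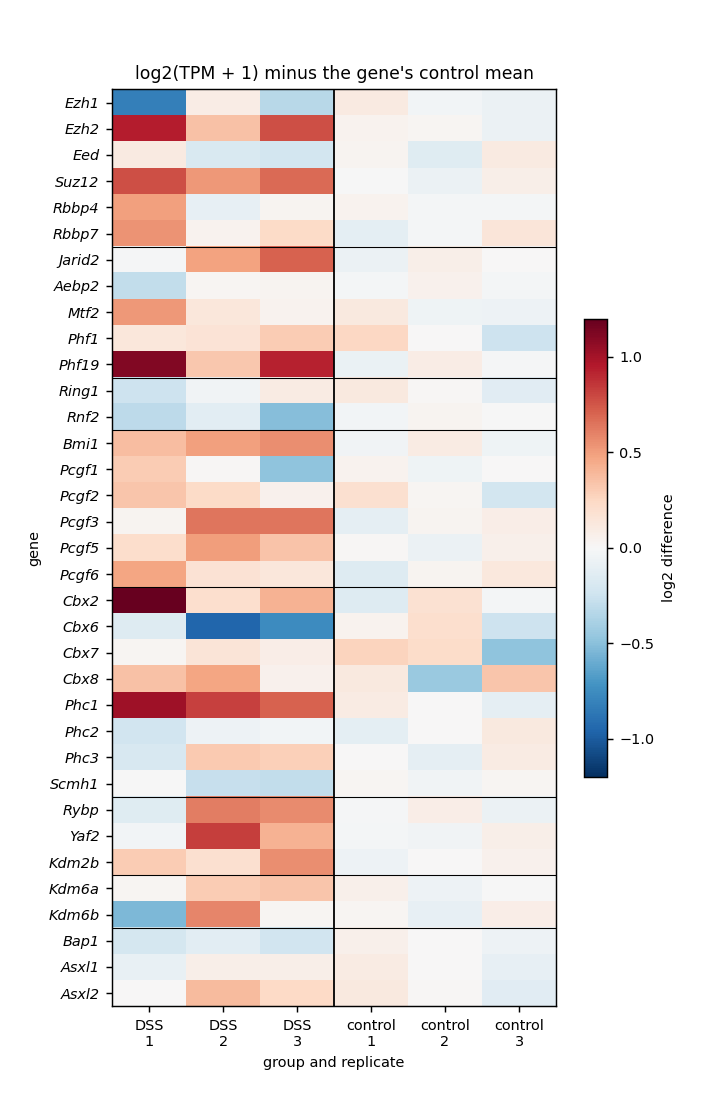
Log2(TPM + 1) of each gene (rows, by complex) minus its mean over the control libraries, for the 3 DSS libraries (left) and the 3 control libraries (right), with red above and blue below the control mean. Ezh2, Suz12 and Phc1 are red in all 3 DSS libraries, whereas Ezh1, Rybp, Yaf2 and Kdm6b are redder or less blue in DSS replicate 2 than in DSS replicate 1.

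Proliferation moved along the order of DSS replicate 1, then 3, then 2. A list of 26 cell cycle genes summed to 1977, 638 and 1230 TPM in DSS replicates 1, 2 and 3, against 462, 504 and 526 TPM in the control libraries, and 25 of the 26 were highest in DSS replicate 1, then 3, then 2. Mki67, the standard marker of cycling cells, had 58.1, 22.6 and 46.7 TPM in DSS against 10.3, 11.5 and 13.1 TPM in control libraries (log2 fold change 1.69, limma adjusted p = 0.0289). Of the 26 genes 8 rose and 0 fell by limma, against 6.45% and 3.89% of all genes tested. At an unadjusted p under 0.05 there were 15 higher and 0 lower, against 18.1% and 11.5%. In 14 of the 26 every DSS library stood above every control library, against 21.1% of all genes tested. The others overlapped. Of these, Mcm2 to Mcm7, Tyms, Ccne1, Ccne2 and E2f1 were lower in DSS replicate 2 than in every control library. They were named after their values were seen. Mcm6 had 69.27, 11.35 and 36.26 TPM in DSS against 17.29, 20.22 and 19.18 TPM in control libraries. The members in the order of DSS replicate 1, then 3, then 2 were Ezh2, Suz12, Rbbp4, Rbbp7, Phf19, Cbx2 and Cbx6. Of these Cbx6 had a negative log2 fold change. The order is shared by 26.2% of all genes tested, and Phc1 and Bmi1 stood in other orders. The part of cell cycle activity in the levels of any of the 35 genes was not tested.

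Markers of other cells were read in the same libraries. The labels call the cells epithelial, and 11 epithelial genes summed to 14310, 21160 and 19540 TPM in DSS against 18750, 19990 and 20340 TPM in control libraries. Of these genes 2 rose and 0 fell by limma, with 2 higher and 1 lower at an unadjusted p under 0.05, while 7 of the 11 log2 fold changes were negative and their median was -0.15. Epcam, which rose, had 1007, 1222 and 1115 TPM in DSS against 726, 781 and 826 TPM in control libraries, Cdx2 also rose, and Krt19 was the gene on the lower side (log2 fold change -0.38, adjusted p = 0.169). The 14 genes of a myeloid list, 6 of them under the filter, summed to 266, 404 and 233 TPM in DSS against 14.9, 8.21 and 7.47 TPM in control libraries. In 13 of the 14 the groups did not overlap, all higher in DSS, against 21.1% of all genes tested. Of those tested, Tyrobp, Fcer1g, Itgam, Mmp12 and Cd74 averaged under 1 TPM in control organoids and passed the filter through their DSS libraries. The count is therefore not read against that share. Of the myeloid sum Lyz2 gave 145, 227 and 123 TPM against 5.19, 2.04 and 1.09 TPM. The defining marker Tyrobp had 5.24, 14.6 and 11.2 TPM in DSS and was listed at 0 in all 3 control libraries. Ptprc had 0.30, 0.47 and 0.39 TPM in DSS against 0.08, 0.05 and 0.08 TPM in control libraries, and Aif1 reached no more than 0.44 TPM in any library. The 11 fibroblast and smooth muscle genes summed to 6.93, 18.3 and 12.3 TPM in DSS against 2.27, 4.19 and 1.62 TPM in control libraries. Most of the DSS sum was Vim, which other cells also express, with 5.92, 15.9 and 10.2 TPM in DSS against 0.67, 1.51 and 0.39 TPM in control libraries. It was the 1 of 2 tested genes that rose by limma (log2 fold change 2.60, adjusted p = 0.0139). Vim averaged 0.857 TPM in control organoids and passed the filter through its DSS libraries. The defining genes Col1a2, Col3a1 and Lum were listed at 0 in all 6 libraries, and 4 of 7 lymphocyte genes were. The part of RNA from such other cells in the Polycomb values was not tested. Xist was between 36.5 and 59.2 TPM in DSS and between 54.3 and 61.5 TPM in control libraries, and Kdm5d was listed at 0 in all 6, so that Kdm6a was compared between libraries with the same pattern of these sex-linked genes.

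Further subunits and partners of the complexes were 26 genes from a textbook list, of which 24 were tested. They gave 1 higher and 0 lower call, against 6.45% and 3.89% of all genes tested. The gene was Auts2, which in mouse brain joins a variant PRC1 that activates transcription, with 3.98, 3.13 and 4.55 TPM in DSS against 1.12, 1.13 and 0.92 TPM in control libraries (log2 fold change 1.24, SE 0.18, adjusted p = 0.0154). The median over the 24 was 0.12. At an unadjusted p under 0.05 Auts2, Cbx3, Hdac1 and Epop were higher and Max lower, genes named here after their values were seen. Of all genes tested 18.1% were higher and 11.5% lower at that threshold. The same shares of all genes stand beside the lists that follow. Among 9 tested partners of PR-DUB and other H2A deubiquitinases limma called 0 in either direction, with 2 higher and 1 lower at an unadjusted p under 0.05 and a median of 0.05. These were, again named after their values were seen, Ogt and Usp21 on the higher side and Usp16 on the lower. Limma also called 0 of 17 Trithorax and H3K27 acetylation genes, which act against Polycomb, with 1 higher (Men1, named likewise) and 0 lower at an unadjusted p under 0.05 and a median of 0.11.

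Genes known as Polycomb targets were mostly silent in both groups. Of 37 developmental regulators and cell cycle inhibitors on the list, 18 were listed at 0 in all 6 libraries and 34 were under the filter. In 5 of the 37 every DSS library stood above every control library, and in 0 below. Among all genes tested these shares were 21.1% and 15.3%. Those genes are all above the filter, and a gene at 0 in every library cannot stand apart, so the shares are not read against the list. The 5 genes were Cdkn2a and Eomes and, under the filter and named after their values were seen, Gata4, Tbx3 and Irx3. In any library Gata4 reached at most 1.66 TPM, Tbx3 1.11 TPM and Irx3 0.11 TPM. Of the 3 genes of the list that were tested, 2 rose. Cdkn2a, the classic target of Bmi1 and Ezh2, had 3.29, 4.19 and 3.40 TPM in DSS against 0.20, 0 and 0.63 TPM in control libraries (log2 fold change 1.88, SE 0.24, adjusted p = 0.0112). As a group the DSS libraries were thus higher in Cdkn2a and also in Bmi1 and Ezh2, its repressors by background knowledge. Within the DSS libraries the orders differed. Cdkn2a was highest in DSS replicate 2, then 3, then 1, Ezh2 the reverse, and Bmi1 in 3, then 2, then 1. A link between these genes was not tested. Eomes, a T-box regulator of mesoderm and of lymphocytes, had 7.17, 3.00 and 6.12 TPM in DSS against 0.97, 1.40 and 0.42 TPM in control libraries (1.71, adjusted p = 0.0282). Cdkn2b, the neighbour of Cdkn2a, had 45.0, 120 and 83.1 TPM in DSS against 65.2, 81.7 and 75.4 TPM in control libraries (0.05, adjusted p = 0.931). Both Cdkn2a and Eomes passed the filter through their DSS libraries, so their count is not read against the list. Of 16 tested Hox genes 6 rose and 1 fell by limma, against 6.45% and 3.89% of all genes tested. The gene that fell, named after its values were seen, was Hoxd13. It had 3.89, 4.75 and 0.05 TPM in DSS against 25.8, 13.3 and 29.1 TPM in control libraries (log2 fold change -2.87, adjusted p = 0.043). Of those that rose, Hoxb5 and Hoxb8 averaged 0.21 and 0.467 TPM in control organoids and passed the filter through their DSS libraries. The Hox count is therefore not read against the list either. Hoxb6 had 8.13, 4.53 and 8.41 TPM in DSS against 1.22, 0.84 and 1.17 TPM in control libraries (1.92, adjusted p = 0.0112). The study picked the Hoxb genes from these libraries, so they are no independent evidence.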

How the data were processed

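RNA-seq libraries of 3 DSS and 3 control organoid cultures were read from 1 table of TPM deposited by the authors. Per the submitters' processing notes, the tools were Trim Galore 0.6.7, cutadapt 3.5, STAR 2.7.7a and 2.7.10a, RSEM 1.3.1 and build GRCm39. RSEM shares reads among near-identical copies by estimation, so genes with such copies are uncertain, and whether strand was used is not given in the sources used here. TPM sums to a fixed total and keeps no depth, so precision is known only from the spread over 3 mice. The table held 0 columns of other samples, and at most 75 of 11643 genes had equal TPM in any pair of libraries.

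TPM was analysed as log2(TPM + 1) for genes with a mean of at least 1 TPM, with limma 3.58.1 in R 4.3.3 (empirical Bayes with trend, two-sided, Benjamini-Hochberg over 11643 genes, threshold 0.05). The fit was tested on simulated data. Paralog ratios were compared by an exact permutation test (20 arrangements, smallest p 0.1). Promoters came from RefSeq (GRCm38.p6). Alternatives were a pseudocount of 0.1, no filter, a filter at 5 TPM, median-ratio and quantile scaling, no trend, the replicate number as a block, and leaving out each library.

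All 35 genes are named. Of other lists, at most 4 genes with the smallest p among those past the threshold were named, plus Cdkn2a, Mki67, Hoxb6, Xist, Kdm5d, Lyz2, Tyrobp and Epcam. Further names, among them Cdkn2b, Krt19 and single markers at 0, were added after their values were seen. The genes and lists were chosen with earlier results of these data known.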

Additional observations from a re-analysis of the deposited data

How the results depend on the processing

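With 3 libraries a group, unknown depth and adjusted p close to 0.05, the calls depended on single libraries and settings, and the cause was not tested. The number of all genes that were higher was 751, and became 456 without the filter, 346 with the replicate number as a block and 29 to 1693 when a library was left out. The number lower was 453, with 185 under the block and 15 to 822 when a library was left out. Higher calls made up 62.4% of all calls, 51.4% (621 higher, 588 lower) under median-ratio scaling and 48.2% (564 higher, 606 lower) under quantile normalization. PRC2 genes higher were 2, but 1 without the filter, under either scaling and without the trend, 0 under the block and 0 to 3 on leaving out a library. PRC1 genes higher were 2, but 0 without the filter, 1 under either scaling, without the trend and under the block, and 0 to 5 on leaving out a library. PRC1 genes lower were 0, or 0 to 1 on leaving out a library. Without DSS replicate 1 there were 1693 higher and 822 lower among all genes, 14.6% and 7.09% of those tested, beside 8 higher and 1 lower of the 35. The PRC1 median log2 fold change of 0.26 was 0.16 under quantile normalization.

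Reversals were all in values that did not pass. Under median-ratio scaling Kdm6b was -0.033 and Asxl1 -0.042, and under quantile normalization Cbx7 was -0.027, Kdm6b -0.046 and Asxl1 -0.041. On leaving out a library Rbbp4 ran between -0.031 and 0.264, Aebp2 between -0.134 and 0.031, Ring1 between -0.142 and 0.03, Pcgf1 between -0.236 and 0.158, Cbx7 between -0.155 and 0.224, Kdm6b between -0.255 and 0.305 and Asxl1 between -0.036 and 0.069. The log2 ratio difference of Yaf2 to Rybp ran between -0.016 and 0.172 and that of Cbx8 to Cbx7 between -0.147 and 0.727. Same-numbered DSS and control libraries had correlations of 0.20, 0.03 and 0.04 between their deviations from the group means, and DSS replicates 2 and 3 correlated best with another number, so the numbers were not taken as pairs. Under the block Phc1 alone of the 4 genes passed (adjusted p = 0.0487).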
